A study of Mus musculus with 6 samples.

Results

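Replication-dependent histone genes encode the bulk of the histone protein that packages newly copied DNA. They were examined in 6 total RNA libraries of the mouse line TIBx, 3 of WT, the parental genotype, and 3 of DNAJ-PKAc, each named A, B and C. The members were the genes whose symbol begins with Hist1h, Hist2h, Hist3h or Hist4 and whose counts summed to at least 10 over the 6 libraries. This gave 64 of the 24054 genes in the deposited table. They comprised 5 genes for the linker histone H1, 16 for H2A, 18 for H2B, 12 for H3 and 13 for H4, of which 51 lie in the Hist1 cluster, 9 in Hist2, 3 in Hist3 and 1 in Hist4. The rule left out 4 genes with the same prefixes, Hist1h1t with 3 counts in all, Hist1h2ba with 1.27, and Hist1h2aa and Hist2h2aa2 with 0. The members with the fewest counts were Hist3h2ba with 29.1 and Hist3h2bb-ps with 40.9.

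Fibrolamellar liver cancer carries DNAJ-PKAc, a fusion that joins the first part of the cochaperone DNAJB1 to the catalytic subunit of PKA, the cAMP-dependent protein kinase. The WT libraries came from the parental line and the DNAJ-PKAc libraries from its derivative, both labelled as the liver line BNL 1ME A.7R.1, and both grew in DMEM with glutamine and serum. There is 1 line per genotype, so differences between the lines from any other source cannot be told apart from those of the fusion. The labels do not say whether replicates were separate cultures, so the spread that p-values measure may be technical. Prkaca, the gene of the kinase part, was at 63.6, 87.6 and 79.2 CPM for WT libraries A to C and 131, 120 and 95.7 CPM for DNAJ-PKAc libraries A to C (CPM is a gene's share of a library's counts, scaled by TMM library factors unless stated). Of 15 hepatocyte markers listed, 14 were in the deposited table, and 12 of these were at 0 in all 6 libraries. Of 11 leukocyte markers listed, 10 were in it, and 6 of these were at 0 in all 6. Fibroblast and stellate markers summed to between 25240 and 26520 CPM in WT, to 16380 and 16140 in DNAJ-PKAc A and B and to 30060 in C. Whether these marker levels have a part in the results was not tested. Total counts ran from 8095549 to 9969590 per library.

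Most mRNAs end in a poly(A) tail. Replication-dependent histone mRNAs instead end just after a short stem-loop, which the stem-loop binding protein SLBP holds, and U7 snRNP guides the cut that makes this end. Their level climbs as cells enter S phase and drops when DNA synthesis stops, and NPAT, a target of cyclin E and its kinase, drives their transcription at the histone locus body. Libraries of total RNA can hold these transcripts, which selection for poly(A) would mostly miss.

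The stem-loop is shown because it defines the class. A search of GENCODE M21 transcripts (GRCm38) for the histone 3′ stem-loop pattern of 16 bases found it in 44 of the 64 members and in 24 of 21814 other protein-coding genes (0.11%). The 20 members without a match include transcript models that stop near the coding end. The 44 members carried 8 distinct stem-loops. The most frequent, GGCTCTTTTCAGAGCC, was found in 25 members, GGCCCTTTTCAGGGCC in 7, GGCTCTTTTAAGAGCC in 5, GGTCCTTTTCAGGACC and GGCCCTTTTTAGGGCC in 2 each, and the remaining 3 in 1 member each. Examples follow with 5 flanking bases on each side, as DNA letters 5′ to 3′ on the gene's own strand, with the stem-loop in capitals.
Hist1h1c (H1): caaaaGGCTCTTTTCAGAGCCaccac
Hist1h2bh (H2B): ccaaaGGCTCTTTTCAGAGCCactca
Hist1h2bk (H2B): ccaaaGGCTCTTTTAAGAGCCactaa
Hist2h2ac (H2A): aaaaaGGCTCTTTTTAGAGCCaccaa
Hist3h2a (H2A): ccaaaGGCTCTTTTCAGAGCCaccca
Hist1h3g (H3): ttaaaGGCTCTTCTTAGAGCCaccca
Hist1h4i (H4): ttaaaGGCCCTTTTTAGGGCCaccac
Hist2h4 (H4): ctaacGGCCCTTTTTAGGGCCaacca
Hist4h4 (H4): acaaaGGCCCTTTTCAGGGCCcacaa
In every one of the 8 the last bases are the reverse complement of the first, so that the strand can fold back on itself around a loop. The pattern itself required GG and CC at the ends and C or T opposite A or G inside. Much of this pairing was therefore set by the search.

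Across the 6 libraries, histone RNA was highest in DNAJ-PKAc A and B and lowest in DNAJ-PKAc C. The 64 members summed to 2281, 1483 and 2463 CPM for WT libraries A to C, to 9864 and 8604 CPM for DNAJ-PKAc A and B, and to 1242 CPM for DNAJ-PKAc C. DNAJ-PKAc A and B thus held 4.75 and 4.14 times the WT mean, while DNAJ-PKAc C held 0.598 of it and lay below every WT library. Of all counts in a library, members took 0.235%, 0.142% and 0.253% in WT and 1.00%, 0.861% and 0.120% in DNAJ-PKAc. The group means were 2076 ± 521 CPM (SD, n = 3) in WT and 6570 ± 4657 CPM (SD, n = 3) in DNAJ-PKAc, a ratio of 3.16, and the groups overlapped. In bulk RNA, fewer cells in S phase and less histone RNA per cell cannot be told apart.

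All 5 histone types followed this order. H3 genes, whose product forms the core of the nucleosome with H4, differed most between libraries, with sums of 258, 171 and 310 CPM in WT and 1768, 1545 and 96.8 CPM in DNAJ-PKAc. H1 genes, for the linker histone that binds DNA between nucleosomes, summed to 302, 202 and 299 CPM in the WT libraries, against 1477, 1377 and 171 CPM in those with the fusion. H4 genes summed to 521, 395 and 555 CPM for WT libraries A to C and 2196, 1857 and 393 CPM for DNAJ-PKAc libraries A to C, so that DNAJ-PKAc C lay just under WT B. In each type DNAJ-PKAc A and B lay above, and DNAJ-PKAc C below, every WT library. H2A genes summed to 555, 344 and 580 CPM in the parental cells and 1802, 1463 and 241 CPM in the DNAJ-PKAc cells, and H2B genes to 645, 371 and 718 CPM and to 2620, 2362 and 340 CPM.

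**Figure D1:**
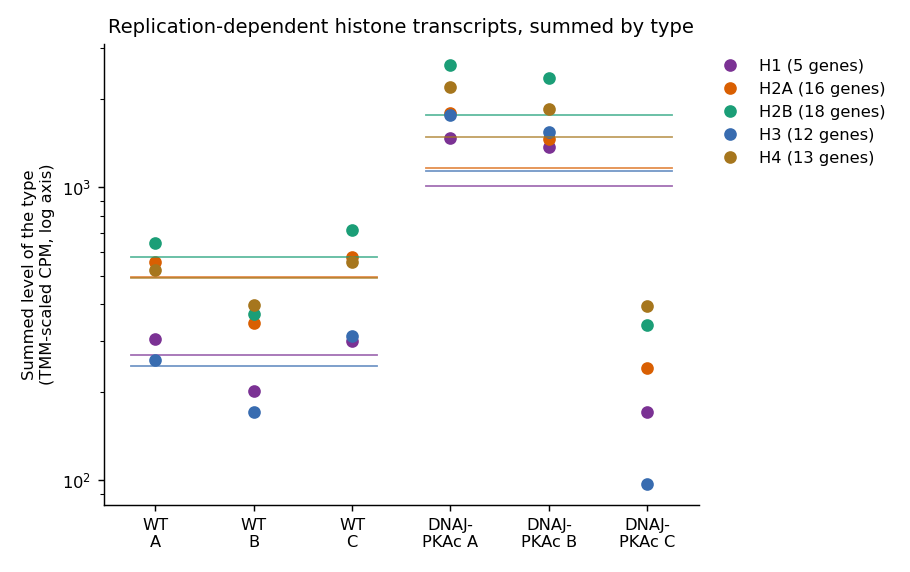
Summed CPM of the members of each histone type in each library, on a log axis. Points are libraries, WT and DNAJ-PKAc, and horizontal lines are group means. In each type the DNAJ-PKAc A and B points lie above all WT points and the DNAJ-PKAc C point below them, with the H3 sums spanning 96.8 to 1768 CPM.

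The makeup of the histone RNA also differed between libraries. H3 genes supplied 11.3%, 11.5% and 12.6% of the members' sum in WT, 17.9% and 18.0% in DNAJ-PKAc A and B, and 7.79% in DNAJ-PKAc C. H4 genes supplied 22.8%, 26.7% and 22.6% in WT, 22.3% and 21.6% in DNAJ-PKAc A and B, and 31.6% in DNAJ-PKAc C. The share of H3 was therefore higher in DNAJ-PKAc A and B than in any WT library and lowest in DNAJ-PKAc C. The share of H4 was highest in DNAJ-PKAc C. Shares of H2A and H1 instead set every DNAJ-PKAc library apart from every WT library. H2A genes supplied at least 23.19% in WT and at most 19.41% in DNAJ-PKAc. H1 genes supplied at most 13.62% in WT and at least 13.76% in DNAJ-PKAc, where C was the lowest and lay only just above WT. The H2B shares of the groups overlapped. Differences in share were not tested.

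By gene, 59 of the 64 members passed the filter on low counts, and 0 of the 59 were called with all 6 libraries (edgeR quasi-likelihood test, Benjamini-Hochberg adjustment over all 10975 genes tested, threshold 0.05; adjusted p from 0.0593 to 0.735). In that comparison 3.51% of all genes were called, 1.37% higher and 2.14% lower (150 and 235 genes, and 114 and 295 with upper-quartile factors). An unadjusted p under 0.05 was found for 32 of the 59, beside 21.5% of all genes tested. DESeq2, which tested all 64, called 11 members higher and 0 lower, where it called 7.93% of all genes, 2.84% higher and 5.09% lower. Of the 11, 2 (Hist1h2ag and Hist1h2ah) were outside the 59. Their counts were high only in DNAJ-PKAc A and B, so these calls are not separate support. With the replicate letter as a block 0 members were called, beside 1.81% of all genes, 0.51% higher and 1.3% lower. The log2 difference, DNAJ-PKAc minus WT, was above 0 for 58 of the 59, with a median of 1.87 beside 0.05 over all genes tested.

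DNAJ-PKAc C decided the calls. Without it 58 of 61 tested members rose and 0 fell, where 14.3% of all genes rose and 11.0% fell, and the median log2 difference of the members was 2.43. All 5 H1, 11 H3 and 13 H4 genes tested rose, as did 14 of 16 H2A and 15 of 16 H2B genes. The 3 members not called were Hist1h2ao (adjusted p = 0.0684 by edgeR), Hist3h2a (0.231) and Hist2h2be (0.385). Without both DNAJ-PKAc C and WT B, a choice made after the data were seen, 59 of 61 rose and 1, Hist2h2be, fell, where 23.9% of all genes rose and 24.5% fell. In each of these fits the 61 include Hist1h2ag and Hist1h2ah, which passed the filter only through DNAJ-PKAc A and B, where both were high. Both genes are counted among those that rose, so their rise is not separate support. Leaving out any other single library left 0 members called.

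By their values alone, most members repeated the order of the sums. DNAJ-PKAc A and B both lay above every WT library for 57 of the 59 tested members, beside 32.5% of all genes tested. DNAJ-PKAc C lay below every WT library for 44 of them, beside 29.5% of all genes, and 42 met both conditions, beside 7.88%. DNAJ-PKAc C lay above every WT library for 3 tested members, all of them H4 genes (Hist1h4i, Hist2h4 and Hist4h4), beside 34.9% of all genes. Relative to the WT mean the tested members ran from 0.872 to 17.5 (median 6.22) in DNAJ-PKAc A, from 0.874 to 14.9 (median 4.62) in DNAJ-PKAc B and from 0.182 to 1.84 (median 0.491) in DNAJ-PKAc C. WT B was the lowest WT library for 56 of the 59, beside 42.3% of all genes.

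**Figure D2:**
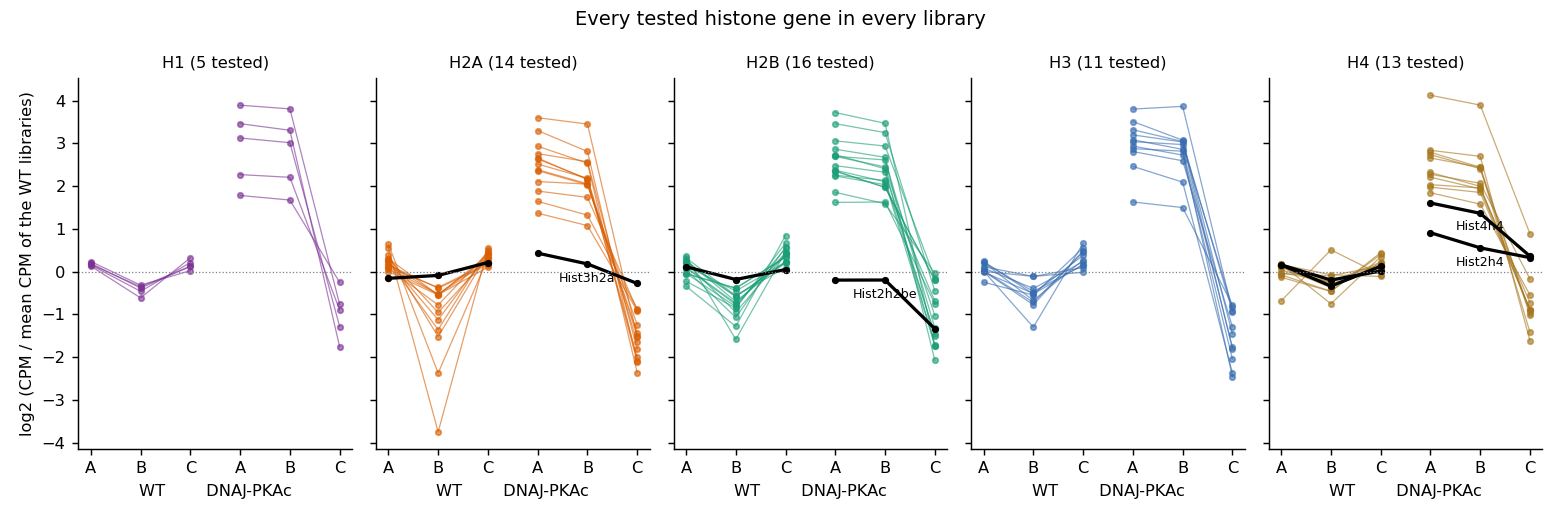
Log2 of the CPM over the WT mean of each tested member in each library, by histone type. Each line links the values of 1 gene, and black lines mark Hist2h2be, Hist3h2a, Hist2h4 and Hist4h4. Most lines lie highest in DNAJ-PKAc A and B and lowest in DNAJ-PKAc C, and the black lines are flatter than most.

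Among the 5 H1 genes, the most abundant and the least abundant differed in the size of the difference. Hist1h1c (chr13:23738808-23740367, plus strand) was at 136, 89.0 and 142 CPM in the WT libraries, against 421, 391 and 103 CPM in those with the fusion. Its DNAJ-PKAc C value lay within the WT range, and its log2 difference was 1.32 (SE 0.50, adjusted p = 0.200 by edgeR, and 0.00268 without DNAJ-PKAc C). Hist1h1a (chr13:23763666-23764406, plus strand) was at 5.92, 3.97 and 5.63 CPM for WT libraries A to C and 76.9, 72.5 and 3.05 CPM for DNAJ-PKAc libraries A to C, which put A and B at 14.9 and 14.0 times the WT mean. With DNAJ-PKAc C below all WT libraries, its log2 difference was 3.29 (SE 0.99, adjusted p = 0.131 by edgeR, and 0.000392 without DNAJ-PKAc C). Hist1h1b, Hist1h1d and Hist1h1e lay between them, at 11.0, 8.74 and 4.83 times the WT mean in DNAJ-PKAc A.

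H2A genes, whose product pairs with H2B in the nucleosome, were led by Hist2h2aa1 (chr3:96245497-96246082, plus strand). It was at 303, 208 and 305 CPM in the parental cells and 702, 574 and 144 CPM in the DNAJ-PKAc cells, with A and B above and C below all WT libraries (log2 difference 0.80, SE 0.52, adjusted p = 0.393 by edgeR, and 0.00762 without DNAJ-PKAc C). Hist1h2ad had the highest log2 difference of the type, 2.96 (SE 1.26), from 9.21, 0.467 and 9.16 CPM in the WT libraries, against 76.2, 68.8 and 2.19 CPM in those with the fusion. Its WT B value lay under all others, so DNAJ-PKAc C fell within the WT range (adjusted p = 0.233 by edgeR, and 0.0223 without DNAJ-PKAc C). Hist1h2af had the smallest adjusted p of the type, 0.216 by edgeR, at 3.40, 2.45 and 3.64 CPM for WT libraries A to C and 31.2, 22.2 and 0.731 CPM for DNAJ-PKAc libraries A to C. Its DNAJ-PKAc C value was 0.231 of the WT mean.

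Hist3h2a (chr11:58954685-58956830, plus strand), the only tested member of the Hist3 cluster, was nearly level. It was at 20.9, 21.9 and 27.1 CPM in the parental cells and 31.5, 26.4 and 19.2 CPM in the DNAJ-PKAc cells. DNAJ-PKAc B lay within the WT range, and the log2 difference was 0.14 (SE 0.23, adjusted p = 0.735 by edgeR). Without DNAJ-PKAc A it was -0.03, so its sign rested on that library.

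H2B genes were led by Hist2h2bb, at 198, 113 and 194 CPM in the WT libraries, against 517, 522 and 100 CPM in those with the fusion. DNAJ-PKAc A and B lay above all WT libraries and C just under WT B (log2 difference 1.17, SE 0.58, adjusted p = 0.281 by edgeR, and 0.00558 without DNAJ-PKAc C). Hist1h2bh had the highest log2 difference of the type, 3.03 (SE 1.08), at 9.86, 5.02 and 9.61 CPM for WT libraries A to C and 108, 90.5 and 2.44 CPM for DNAJ-PKAc libraries A to C. Its adjusted p was 0.181 by edgeR and 0.000803 without DNAJ-PKAc C. Hist1h2bk, at 28.4, 15.6 and 36.0 CPM in the parental cells and 222, 205 and 24.0 CPM in the DNAJ-PKAc cells, had the smallest adjusted p, 0.135 by edgeR. Its DNAJ-PKAc C value lay within the WT range.

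H3 genes included the tested member of second highest fold in DNAJ-PKAc B. Hist1h3g was at 8.11, 7.47 and 8.61 CPM in the WT libraries, against 113, 118 and 4.26 CPM in those with the fusion, 14.0, 14.6 and 0.529 times the WT mean. The WT values lay close together and DNAJ-PKAc C below them (log2 difference 3.28, SE 1.00, adjusted p = 0.134 by edgeR, and 0.000124 without DNAJ-PKAc C). Hist2h3c2, the H3 gene with the highest mean, was at 47.6, 33.6 and 62.4 CPM for WT libraries A to C and 264, 204 and 9.26 CPM for DNAJ-PKAc libraries A to C, so DNAJ-PKAc C held 0.194 of the WT mean. Reads may be split with its near copy Hist2h3c1, and summed with that copy DNAJ-PKAc C held 0.266 of the WT mean. Hist2h3b, in the same cluster, had the lowest log2 difference of the type, 1.12 (SE 0.56), with 42.3, 30.3 and 46.8 CPM in the parental cells and 123, 113 and 23.1 CPM in the DNAJ-PKAc cells. DNAJ-PKAc A and B lay above all WT libraries for Hist2h3c2 and Hist2h3b.

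H4 genes included the member nearest to a call. Hist1h4i (chr13:22040636-22041362, minus strand) was at 4.82, 4.08 and 3.97 CPM in the WT libraries, against 75.0, 64.0 and 7.92 CPM in those with the fusion. All 3 DNAJ-PKAc libraries lay above all WT libraries, at 17.5, 14.9 and 1.84 times the WT mean (log2 difference 3.51, SE 0.76, adjusted p = 0.0593 by edgeR, and 0.000247 without DNAJ-PKAc C). Hist4h4 (chr6:136801553-136804415, minus strand), the single member of its cluster, was at 71.3, 50.5 and 69.7 CPM for WT libraries A to C and 194, 164 and 82.0 CPM for DNAJ-PKAc libraries A to C. Its groups did not overlap either, and its log2 difference was 1.20 (SE 0.33, adjusted p = 0.109 by edgeR, and 0.0029 without DNAJ-PKAc C).

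Hist2h4 (chr3:96261682-96263311, minus strand) was at 77.5, 60.6 and 70.1 CPM in the parental cells and 130, 102 and 87.1 CPM in the DNAJ-PKAc cells, again with no overlap. It had the lowest log2 difference of the H4 genes, 0.62 (SE 0.20, adjusted p = 0.146 by edgeR, and 0.0218 without DNAJ-PKAc C). Hist1h4i and Hist2h4 carry the same 16-base stem-loop printed above, and in DNAJ-PKAc A they stood at 17.5 and 1.88 times the WT mean. Hist1h4n, the most abundant H4 gene, was at 79.7, 41.9 and 90.0 CPM in the WT libraries, against 342, 296 and 62.5 CPM in those with the fusion, where C fell within the WT range. Groups did not overlap for 4 tested members in all, the other being Hist2h2be, beside 28.9% of all genes tested.

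The Hist1 sums differed from WT by larger folds than the Hist2 sums. The Hist1 cluster summed to 1417, 893 and 1586 CPM for WT libraries A to C and 7689, 6722 and 728 CPM for DNAJ-PKAc libraries A to C, or 5.92, 5.18 and 0.561 times the WT mean. The Hist2 cluster summed to 769, 517 and 779 CPM in the parental cells and 1947, 1689 and 412 CPM in the DNAJ-PKAc cells, or 2.83, 2.45 and 0.599 times the WT mean. The Hist1 share of histone RNA was accordingly 62.1%, 60.2% and 64.4% in WT, 78.0% and 78.1% in DNAJ-PKAc A and B, and 58.6% in DNAJ-PKAc C. The Hist3 sums lay near each other, at 23.6, 22.8 and 28.0 CPM in the WT libraries, against 32.9, 28.2 and 19.5 CPM in those with the fusion. In the fit with all 6 libraries the median log2 difference was 2.06 over the 49 tested Hist1 members and 1.08 over the 8 of Hist2; the difference between clusters was not tested.

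Hist2h2ac and Hist2h2ab had lower folds than the Hist1 median in DNAJ-PKAc A and B, but not in C. Hist2h2ac (chr3:96220361-96220880, minus strand) was at 63.3, 38.7 and 65.8 CPM for WT libraries A to C and 175, 140 and 30.5 CPM for DNAJ-PKAc libraries A to C. Hist2h2ab, a gene of low counts, was at 2.41, 0.934 and 2.76 CPM in the parental cells and 7.52, 6.79 and 1.10 CPM in the DNAJ-PKAc cells. In both genes DNAJ-PKAc A and B lay above all WT libraries. Their log2 differences were 1.04 (SE 0.58, adjusted p = 0.323 by edgeR) and 1.33 (SE 0.71, adjusted p = 0.311), and both rose without DNAJ-PKAc C (0.00728 and 0.0193).

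The Hist1 members lie in 2 stretches of chromosome 13 that are 1487.4 kb apart. The first, chr13:21715763-22043676, holds 23 members, of which 21 were tested, with a median log2 difference of 1.88. The second, chr13:23531050-23764406, holds 28 tested members with a median of 2.15. Median folds over the WT mean were 6.31, 4.55 and 0.423 in libraries A to C of DNAJ-PKAc in the first and 7.04, 5.88 and 0.370 in the second, so the order of the libraries was the same in both.

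**Figure D3:**
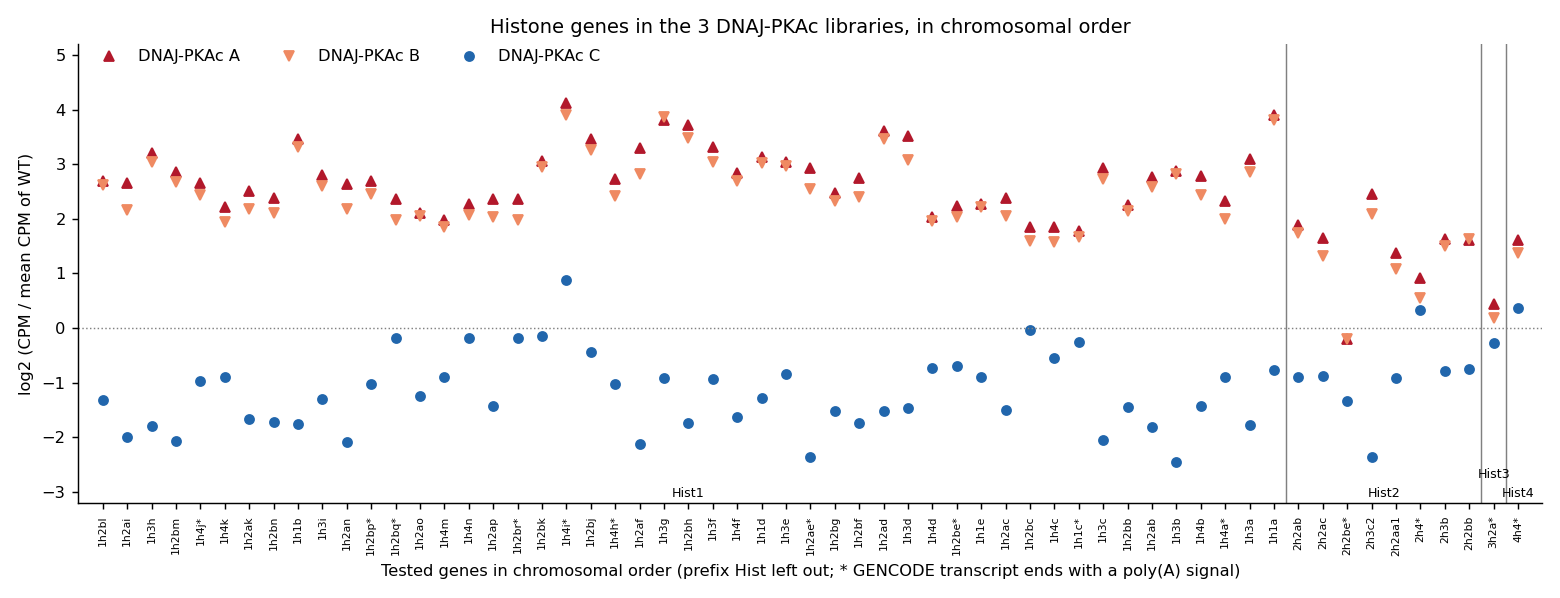
Log2 of the CPM over the WT mean of each tested member in the 3 DNAJ-PKAc libraries, in gene order along each cluster. An asterisk marks members with a GENCODE transcript that ends with a poly(A) signal. Hist1 members in both stretches lie above 0 in DNAJ-PKAc A and B, and most lie below 0 in DNAJ-PKAc C, with Hist2h2be below 0 in all 3.

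Many H2A and H2B genes face away from each other across a shared promoter. Among the members there were 12 such pairs with starts under 500 bases apart. In 10 of them, all in Hist1, both partners were at least 3.62 times the WT mean in DNAJ-PKAc A. This is not particular to pairs, since the lowest such fold over all 49 tested Hist1 members was 3.44. The folds of partners were not equal, as for Hist1h2ah at 38.3 and Hist1h2bk at 8.34 in DNAJ-PKAc A. In the pairs on chromosomes 3 and 11 partners lay on opposite sides of the WT mean in DNAJ-PKAc A, with Hist3h2a at 1.35 and the rarely counted Hist3h2bb-ps at 0.888. Hist2h2be (chr3:96221119-96223738, plus strand), whose start lies 238 bases from that of Hist2h2ac, was at 34.3, 27.9 and 32.8 CPM in the WT libraries, against 27.6, 27.7 and 12.6 CPM in those with the fusion. All DNAJ-PKAc values lay below all WT values, at 0.872, 0.874 and 0.396 times the WT mean, where Hist2h2ac was at 3.13, 2.5 and 0.544. DNAJ-PKAc A and B, at 27.62 and 27.66 CPM, lay only just under WT B at 27.89. The log2 difference of Hist2h2be was -0.48 (SE 0.31, adjusted p = 0.384 by edgeR), and -0.20 without DNAJ-PKAc C (adjusted p = 0.385). Without both DNAJ-PKAc C and WT B, a choice made after the data were seen, it was -0.33 (adjusted p = 0.042).

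The window between this pair is printed because its partners differed while sharing it. It is the RefSeq promoter of Hist2h2ac (RefSeq symbol H2ac20), chr3:96220831-96221130 on the minus strand of GRCm38.p6, from 250 bases before to 50 bases after the start. Capitals mark the octamer ATTTGCAT and the CCAAT motif, each on either strand, and the marked matches do not overlap.
Hist2h2ac promoter: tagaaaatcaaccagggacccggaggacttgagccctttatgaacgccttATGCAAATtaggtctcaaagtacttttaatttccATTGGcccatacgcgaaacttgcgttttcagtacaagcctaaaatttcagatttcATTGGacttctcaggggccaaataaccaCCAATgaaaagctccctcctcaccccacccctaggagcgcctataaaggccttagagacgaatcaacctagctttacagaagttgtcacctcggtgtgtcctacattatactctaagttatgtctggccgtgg
The window holds 1 octamer, which OCT1 (Pou2f1) binds in H2B promoters, and 3 CCAAT motifs, the site of NF-Y.

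Promoters of the members differed by type in the motifs they held. The RefSeq table had a promoter for 58 of the 64. The octamer was found on either strand in 5 of 15 H2B promoters and 6 of 16 H2A promoters, in 0 of the H1, H3 and H4 promoters, and in 1.74% of all 32851 promoters of the same length. CCAAT was found in all H1, H2A, H2B and H3 promoters and in 3 of 12 H4 promoters, beside 37.4% of all promoters. The motif AAACACA, known as the H1 box, was found in 4 of 5 H1 promoters and in 7.18% of all. TATAAA was found in 80.0% of H1, 66.7% of H4, 62.5% of H2A, 46.7% of H2B and 40.0% of H3 promoters, beside 13.6% of all. A match describes the letters only. The promoter of Hist1h1b (RefSeq symbol H1f5, chr13:21780576-21780875, minus strand) shows an H1 box and CCAAT motifs, in capitals and not overlapping, in a gene whose fold over WT was 11.0 in DNAJ-PKAc A and 0.296 in C.
Hist1h1b promoter: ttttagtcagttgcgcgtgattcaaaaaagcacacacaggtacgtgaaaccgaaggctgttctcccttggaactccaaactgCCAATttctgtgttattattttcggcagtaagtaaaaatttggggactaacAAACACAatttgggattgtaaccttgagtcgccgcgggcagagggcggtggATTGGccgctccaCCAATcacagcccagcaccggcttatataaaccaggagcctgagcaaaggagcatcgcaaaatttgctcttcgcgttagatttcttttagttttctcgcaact

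Some histone genes also have transcripts that run past the stem-loop to a poly(A) signal, a form known from cells that have left the cycle. A signal, AATAAA or ATTAAA, was looked for in the last 50 bases of each GENCODE transcript, a split chosen after the values were seen. It was found in 14 tested members, whose median folds over the WT mean were 5.06, 3.96 and 0.724 in libraries A to C of DNAJ-PKAc. The 45 without it had medians of 6.50, 5.30 and 0.374. A signal need not lie far past the stem-loop, as in Hist1h4h, whose transcript ends 46 bases after it. In another unplanned split, 17 tested members had a transcript running more than 200 bases beyond the stem-loop, with medians of 5.23, 4.27 and 0.562. The 24 ending within 200 bases of it had medians of 6.72, 5.45 and 0.373, and in 18 no stem-loop was found. The 3 tested members of smallest fold in DNAJ-PKAc A, Hist2h2be, Hist3h2a and Hist2h4, all had a signal, with longest transcripts of 2620, 2146 and 1630 bases. Next came Hist2h2aa1 without a signal, Hist4h4 with one (2863 bases), and Hist2h2bb, Hist2h3b and Hist2h2ac without. In Hist3h2a, Hist2h4 and Hist4h4 the annotated transcript ran 1643, 1257 and 2445 bases beyond the stem-loop. Hist1h4i, the tested member of highest fold in DNAJ-PKAc A, had a signal too, so the group does not share 1 response, and counts per gene do not show which transcript end was present.

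Near-identical copies limit what single genes show. Only 13 members had whole counts in all 6 libraries; the other 51 had fractions, which arise where reads match more than 1 gene. Summed, the 13 were at 3.94, 3.67 and 0.727 times the WT mean in libraries A to C of DNAJ-PKAc, and the 51 at 5.17, 4.39 and 0.532, so the order of the libraries held in both. Hist1h2bq and Hist1h2br had the same value in every library and are a single measurement, though the counts of members given here include both. Hist2h3c1 had 0 counts in 4 libraries and 30.8 and 31.1 in WT B and DNAJ-PKAc C, beside its near copy Hist2h3c2, and the pair summed to 5.38, 4.17 and 0.266 times the WT mean. Sums by type do not depend on how reads were split among copies of that type.

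The 5 members below the filter were of the H2A, H2B and H3 types. Hist1h2ah had 9.43, 2.77 and 6.13 counts in WT and 258, 156 and 2.28 counts in DNAJ-PKAc. Hist1h2ag had 6.03, 1.78 and 3.75 counts in WT and 106, 89.7 and 9.02 counts in DNAJ-PKAc. Both were far higher in DNAJ-PKAc A and B than in WT, and Hist1h2ag also lay above every WT library in DNAJ-PKAc C. DESeq2, which tested them, called both (adjusted p = 0.0301 and 0.000155). Outside DNAJ-PKAc A and B their counts were few, so these calls are not separate support. Hist3h2ba, with 10, 1 and 5 counts in WT and 6, 5.06 and 2 counts in DNAJ-PKAc, and the pseudogene Hist3h2bb-ps, with at most 14 counts in any library, showed no such difference.

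Genes that make and cut histone mRNA were described from a list of 41, all tested. With all 6 libraries 0 were called in either direction, and the median log2 difference was 0.29. Slbp, whose product binds the stem-loop, was at 31.7, 27.0 and 32.1 CPM for WT libraries A to C and 61.8, 64.6 and 34.5 CPM for DNAJ-PKAc libraries A to C. All DNAJ-PKAc libraries lay above all WT libraries, C by little (log2 difference 0.83, SE 0.26, adjusted p = 0.140 by edgeR, and 0.00372 without DNAJ-PKAc C). Npat was level, at 53.8, 60.1 and 56.0 CPM in the parental cells and 54.1, 60.1 and 47.6 CPM in the DNAJ-PKAc cells (log2 difference -0.07, SE 0.15, adjusted p = 0.817). Casp8ap2 (FLASH), which helps to cut the 3′ end, was at 27.2, 27.2 and 23.7 CPM in the WT libraries, against 44.2, 47.3 and 21.9 CPM in those with the fusion, and rose without DNAJ-PKAc C (0.00882).

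Lsm10 and Lsm11, the proteins specific to U7 snRNP, were not called. Lsm10 was at 15.3, 12.1 and 13.5 CPM for WT libraries A to C and 15.4, 14.7 and 16.3 CPM for DNAJ-PKAc libraries A to C, and Lsm11 at 15.6, 12.5 and 14.6 CPM and 11.1, 10.0 and 6.34 CPM. Their log2 differences were 0.18 and -0.63 (adjusted p = 0.591 and 0.227 by edgeR). Lsm11 was thus below WT in all 3 DNAJ-PKAc libraries, and Lsm10 was not. Zfp473, a zinc finger protein that works with U7 snRNP, reached at most 1.55 CPM in WT, against 2.57, 2.35 and 1.58 CPM with the fusion (log2 difference 1.16, adjusted p = 0.211). Eri1, which trims histone mRNA ends, differed by 0.41 on the log2 scale (adjusted p = 0.430) and rose without DNAJ-PKAc C (0.0195). The smallest adjusted p-values of the list were 0.101 for Snrpb, a core protein shared with spliceosomal snRNPs, and 0.108 for Ccne1, cyclin E1. Without DNAJ-PKAc C 17 of the 41 rose and 1, Zcchc6, fell, beside 14.3% and 11.0% of all genes.

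Histone variant genes, most of which are also made outside S phase and carry a poly(A) tail, stood closer to WT. Of 10 tested, 0 were called, the median log2 difference was 0.45, and without DNAJ-PKAc C 4 rose (H2afz, H2afx, H2afj and Cenpa), beside 14.3% of all genes. H3f3a and H3f3b, both coding for the H3.3 variant, ranged over 193 to 313 and 319 to 344 CPM in WT, against 268 to 306 and 268 to 314 CPM with the fusion. H2afx, whose product is phosphorylated at DNA breaks and whose gene also makes a stem-loop mRNA, was at 42.1, 26.4 and 43.3 CPM in the parental cells and 118, 94.0 and 23.6 CPM in the DNAJ-PKAc cells, the same order of libraries as the members. Cenpa, the H3 variant of centromeres, followed that order too, with folds over WT of 3.04, 3.79 and 0.465, and H2afz (H2A.Z) had folds of 2.04, 2.14 and 1.04. H2afj had the smallest adjusted p of the list, 0.0869 by edgeR, at 29.4, 17.1 and 25.4 CPM in the WT libraries, against 80.0, 66.3 and 36.3 CPM in those with the fusion, followed by H2afy2 (macroH2A2) with a log2 difference of 0.50 (adjusted p = 0.205). Histone chaperones had a median of 0.43 over 24 genes, with 0 called and 12 rising without DNAJ-PKAc C (14.3% of all genes rose), among them Asf1a (log2 difference 0.81 with all 6 libraries, adjusted p = 0.111) and Dnajc9 (1.47, 0.123).

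DNA replication and mitosis genes moved with the histones between libraries. Over 50 replication genes the median folds over the WT mean were 2.61, 2.63 and 0.602 in libraries A to C of DNAJ-PKAc, and over 25 mitosis genes 3.62, 3.64 and 0.391. In both lists 0 genes were called with all 6 libraries, with medians of 0.96 and 1.34, and without DNAJ-PKAc C 44 of 50 and 25 of 25 rose and 0 fell, beside 14.3% and 11.0% of all genes. DNAJ-PKAc C lay below every WT library for 36 of the 50 replication genes and 24 of the 25 mitosis genes, beside 29.5% of all genes tested. The replication list shares Slbp, Ccne1, Ccne2 and E2f1 with the processing list, and Chaf1a, Chaf1b and Mcm2 with the chaperones. Chaf1b, a subunit of the chaperone that deposits H3 and H4 behind the replication fork, was at 5.37, 4.32 and 6.29 CPM for WT libraries A to C and 26.5, 28.0 and 5.36 CPM for DNAJ-PKAc libraries A to C. Cdk1, the kinase that starts mitosis, was at 57.5, 39.2 and 61.8 CPM in the parental cells and 275, 306 and 54.0 CPM in the DNAJ-PKAc cells. For both genes DNAJ-PKAc A and B were several times WT and C lay within the WT range, which for Cdk1 is the exception in its list. Bub1b, of the spindle checkpoint, had a log2 difference of 2.14 (SE 0.74, adjusted p = 0.174 by edgeR).

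**Figure D4:**
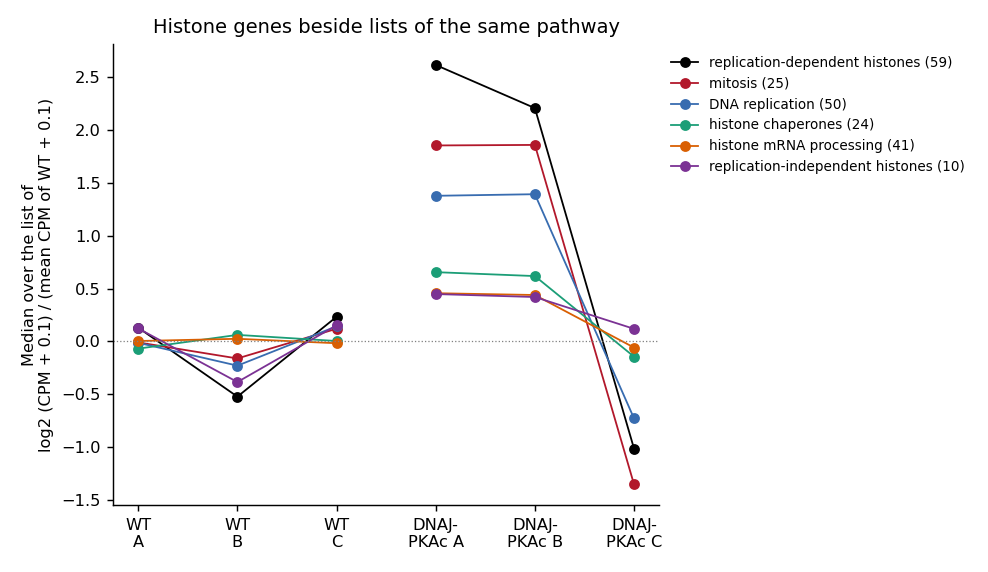
Median log2 of the value over the WT mean in each library for the members and the gene lists. Points are list medians per library and lines link the points of 1 list. The histone members span 2.61 in DNAJ-PKAc A to -1.01 in DNAJ-PKAc C, and the processing, variant and chaperone lists lie closer to 0.

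Set against the replication genes, histone RNA differed by more. The ratio of the members' sum to that of the 50 replication genes was 1.68, 1.18 and 1.62 in WT, 2.80 and 2.42 in DNAJ-PKAc A and B, and 1.39 in DNAJ-PKAc C. It was thus higher in A and B than in any WT library, while in C it lay within the WT range. The part of the replication genes' own change in the histone result was not tested.

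Other RNAs without poly(A) did not follow this order. Of the 26 listed, 14 were in the deposited table. Of these 14, 7 were at 0 in all libraries and 6 were tested, with a median log2 difference of 0.05 and 0 called with or without DNAJ-PKAc C. The RNase MRP RNA Rmrp was at 6365, 3344 and 5324 CPM in the WT libraries, against 5652, 3646 and 4760 CPM in those with the fusion, and the RNase P RNA Rpph1 at 1617, 802 and 1341 CPM and at 1583, 1484 and 1849 CPM. In these the groups overlapped, and WT B was the lowest WT library, as it was for histones. The ribosomal RNA precursor Rn45s took 2.66% of counts in WT B and 0.912% to 1.05% in the other 5 libraries (log2 difference -0.65, adjusted p = 0.387 by edgeR). Malat1, a nuclear RNA, was at 10412 CPM of the plain total in WT B and 4639 in DNAJ-PKAc C, the 2 libraries lowest in histone RNA, in place of 1065 to 2578 in the rest. Their part in the histone result was not tested.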

How the data were processed

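A stranded total RNA kit was used, per the labels' protocols. Values in the deposited table are expected counts for each gene symbol without normalization, per the file headers and the values; 1.52% to 1.68% of values per library were not whole. Per the submitters' processing notes, RSEM 1.3.0, STAR 2.5.2b and mm10 were used, with no roles stated. Which annotation and strand setting the counting used is not given here, so near-identical, overlapping and antisense genes could share reads.

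Counts were rounded, filtered with filterByExpr (minimum count 10) and scaled by TMM. They were fitted by genotype with edgeR 4.0.16 in R 4.3.3 (quasi-likelihood, robust dispersions, 2-sided, Benjamini-Hochberg over all genes tested). Every adjusted p is from edgeR unless DESeq2 1.42.0 is named. CPM and sums use rounded counts. No test was run on sums or lists. On simulated data for this comparison (10975 genes), 39 of 100 genes with a 2-fold change were recovered, and 100 of 100 with a 4-fold change. The simulated spread was that typical of genes at the same level. The members' own spread was not simulated, so these shares do not apply to them.

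The members and lists were chosen with earlier results of these data known. Named were, per histone type, the members of highest mean, smallest adjusted p, and highest and lowest log2 difference, every tested member outside Hist1, and 2 genes or more per list; Hist1h1b, Hist1h1d, Hist1h1e, Hist1h2ao, Zcchc6, Rmrp, Malat1 and the histone variants other than H2afj and H2afy2 were chosen after their values were seen. Sequences and coordinates come from GENCODE M21 (GRCm38) and RefSeq (GRCm38.p6). Members were matched to RefSeq by symbol, synonym and position. The alternatives tried were upper-quartile and RLE factors, no filter, 1 CPM in 3 libraries, DESeq2, unrounded counts for the sums, structural RNA left out of library sizes, the replicate letter as a block and each library left out. At 8095549 to 9969590 counts per library, 1 CPM is about 8 to 10 counts. Intervals are not given, since replicate spread exceeds counting error.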

Additional observations from a re-analysis of the deposited data

How the results depend on the processing

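RLE or upper-quartile factors, no filter, the filter of 1 CPM in 3 libraries, structural RNA left out of library sizes and the replicate block each left 0 members called, and leaving out single libraries gave 0 to 58. DESeq2 called 11 members, and 60 were called without DNAJ-PKAc C and WT B. Over all genes, where 385 were called (150 higher and 235 lower), DESeq2 called 961, the replicate block 199, leaving out single libraries 77 to 2808, and leaving out both libraries 5336; upper-quartile factors gave 114 higher and 295 lower. The causes were not tested. The median log2 difference of the members was 1.79 with upper-quartile factors in place of 1.87. Of the 19 members named by the rule, 17 passed the threshold without DNAJ-PKAc C, 6 by DESeq2, and 18 without both libraries. Hist3h2a turned to -0.026 on the log2 scale without DNAJ-PKAc A (lowest), reaching 0.315 without DNAJ-PKAc C (highest), and 0 other named members turned in direction under any alternative run. The ratio of group means of the members' sum, 3.16, was 2.98 with upper-quartile factors, 3.08 with RLE and 2.38 to 4.45 with single libraries left out. Deviations from the group means correlated at 0.21, -0.20 and 0.03 for letters A, B and C, and from -0.28 to 0.30 between different letters. Deviations within a group sum to 0, so these values cannot show whether the letters pair libraries. With the replicate block 0 members were called, as without it. With 3 libraries a group, data simulated at the spread typical of each level recovered 39 of 100 differences of 2-fold and 100 of 100 of 4-fold. The members' own spread was not simulated, so these shares do not apply to them. Members at a few CPM in WT rest on few counts.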
